A study of Mastomys natalensis with 4 samples.

Results

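The expression of 42 genes of macrophages, neutrophils and mast cells was compared between 16 and 8 weeks of loxtidine (spelled loxitidine in the labels), a histamine H2 receptor blocker, in gastric mucosa of the African rodent Mastomys natalensis. The genes were chosen by name: a probe set belongs to the group if the array's annotation gives it a single gene symbol and that symbol is listed. This gave 57 of the 12488 probe sets on the array, for 40 of the 42 genes. Clec4n and Lyz1 had no probe set of their symbol alone. The values of the comparison were not part of this rule. The members and the further gene lists below were, however, chosen with earlier results of these data known.

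All 4 samples were total RNA of treated gastric mucosa hybridised to Affymetrix mouse U74 arrays. The labels place 2 samples at 8 weeks, with hyperplasia of the enterochromaffin-like (ECL) cells, which are endocrine cells of the stomach, and 2 samples at 16 weeks, with ECL cell neoplasia. Treatment time and lesion stage changed together and cannot be told apart, untreated mucosa was not analysed here, and the labels used here give no age, sex or count of animals. Whether the 2 samples of a group are separate animals is not stated, and the p-values therefore reflect the spread among the samples as deposited, be it biological or technical.

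Macrophages, neutrophils and mast cells are myeloid cells. Macrophages live in the lamina propria, where they clear dying cells and microbes through scavenger receptors, receptors for antibody and complement C1q. Neutrophils arrive from the blood and carry granules of microbicidal proteins and proteases. Mast cells lie in the mucosa and the muscle wall, store histamine with chymase, tryptase and carboxypeptidase, and release them when antigen binds IgE on their surface. The RNA here came from whole mucosa, so fewer cells of a type and less RNA per cell cannot be told apart.

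Arrays read between 55.3% and 62.4% of all probe sets above a floor intensity of 12.15, which separates dim probe sets from the rest, and their median intensities were 15.4 and 17.3 at 8 weeks and 19.2 and 18.9 at 16 weeks. All 5 parietal cell markers and all 4 surface mucous cell markers with a probe set passed the filter on dim signals. The probes match mouse sequence and can bind the RNA of another genus poorly, so a low reading is no evidence that a transcript was missing. Intensities are on a linear scale in arbitrary units. Differences are log2 differences, 16 weeks minus 8 weeks, of values raised to the floor where they lay under it. They are given with a standard error (SE) and n = 2 samples per group. Raising a reading to the floor can make both a difference and its SE smaller.

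Of the 40 genes 23 had a probe set bright enough to test and 17 had none. Of the 57 probe sets 25 lay under the floor on all 4 arrays, 6 exceeded it on 1 array, 6 on 2 or 3 arrays and 20 on all 4. A probe set was tested if it exceeded the floor on 2 or more arrays, as did 26 probe sets of 23 genes (45.6% of the members against 63.5% of all probe sets).

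The macrophage antigen Adgre1 read 6.1 and 4.8 in week 8 against 8.8 and 9.1 in week 16 on 1 probe set and 1.4 and 8.9 against 5.8 and 8 on the other. The leukocyte phosphatase Ptprc, carried by all white blood cells, read between 0.3 and 3.5 on its 3 probe sets. Aif1, a calcium-binding protein of macrophages, and the scavenger receptor Marco did not exceed 10.5 and 3.5. These genes therefore give no information on the number of macrophages or of leukocytes as a whole.

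The shared signalling chain of Fc receptors, Fcer1g, read at most 6, and the IgG receptor Fcgr3 4.6 and 6.1 against 7.4 and 11.1. The inhibitory IgG receptor Fcgr2b exceeded the floor in 16-week sample 2 alone, at 15.5 against 2.2 to 7.3 elsewhere, and the mannose receptor Mrc1 in 16-week sample 1 alone, at 18.5 against 5 to 12. Among neutrophil genes S100a9, the partner of S100a8 in calprotectin, read between 3 and 7.7. The granule protein Ngp read 17 in 16-week sample 2 and 7.9 to 10.5 in the other samples. The cytosolic oxidase organiser Ncf1 read 5.7 to 7.5.

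Of the 10 mast cell genes 6 had no tested probe set. Of the IgE receptor the alpha chain Fcer1a read 0.6 to 8.7, under the floor throughout, whereas the beta chain Ms4a2 was bright enough to test. The histamine-forming enzyme Hdc, which ECL cells also express, read 4.9 to 7.8. The mucosal mast cell protease Mcpt2 read 4.8 and 4.7 in week 8 against 9 and 11.1 in week 16, and the connective tissue type protease Mcpt4 0.9 and 2.4 against 10.6 and 3.7. Values under the floor have no order, so these readings are not a difference.

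The stem cell factor receptor Kit, which mast cells share with the pacemaker cells of the gut wall, read 10 and 8.5 against 13.5 and 11.7 and exceeded the floor in 1 sample. Another mucosal protease, Mcpt1, read 39.7 in 8-week sample 1 on probe set 94728_f_at, against 4.3, 7.9 and 11.1 in the other samples. Its second probe set exceeded the floor in the other 8-week sample only, at 14.5. The 2 probe sets of Mcpt1 thus did not point to the same sample.

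**Figure D1:**
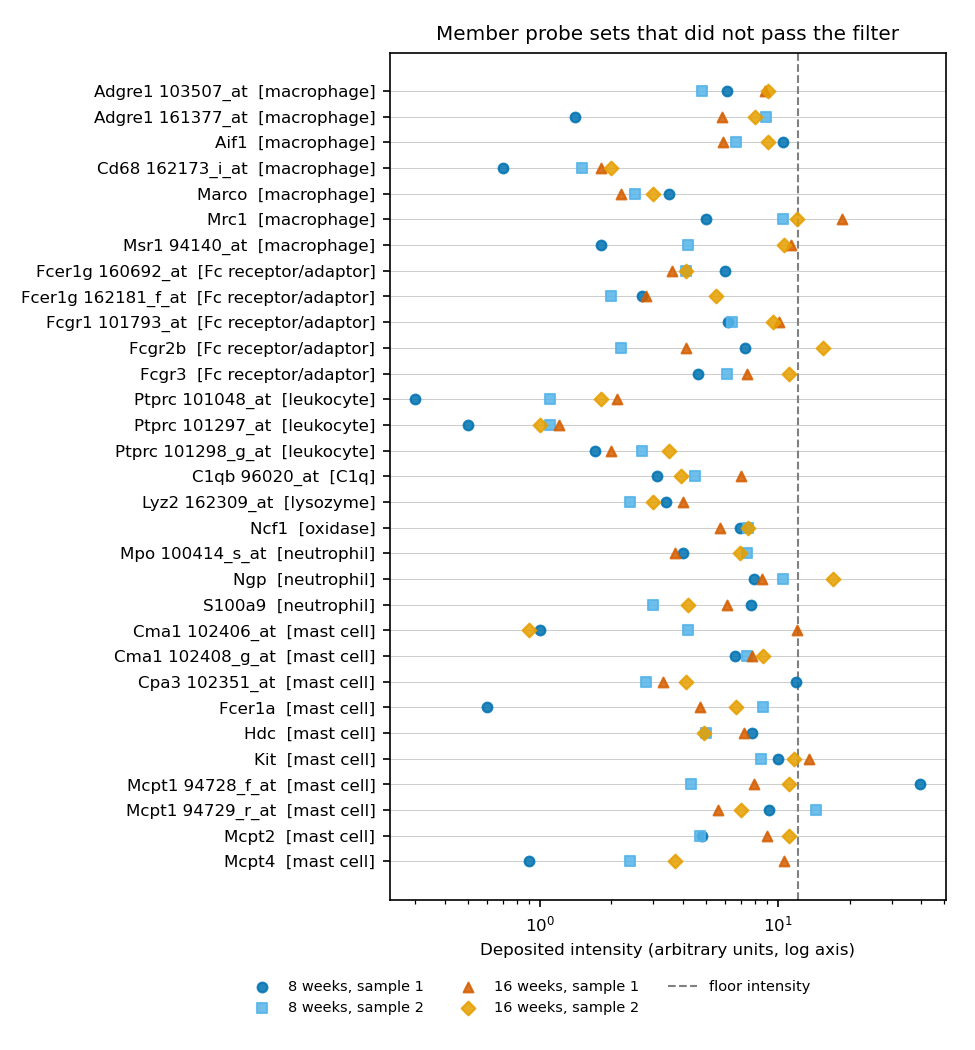
Deposited intensity on a log axis (arbitrary units) of the 31 member probe sets that did not pass the filter, with a point for each of the 4 samples and the floor of 12.15 as a dashed line. Nearly all points lie left of the floor, and the farthest point to the right is Mcpt1 in 8-week sample 1, at 39.7.

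The comparison of 16 with 8 weeks asked which myeloid transcripts differed between hyperplastic and neoplastic mucosa. No member passed limma's test: 0 of 26 probe sets had a Benjamini-Hochberg adjusted p under 0.05, and neither did any other probe set on the array (0 of 7883, 0%). The members' adjusted p ran from 0.301 to 0.993. At an unadjusted p under 0.05 there were 5 of 26 members (19.2%), against 14.0% of all tested probe sets. Of the 26 probe sets 16 (61.5%) read higher at 16 weeks and 10 lower, against 56.3% higher among all tested probe sets. The split depended on the scale of the arrays, and the filter was applied anew on each scale. It was 13 higher and 13 lower of 26 after quantile normalization, and 10 and 15 of 25 on a common median. It was 23 and 6 of 29 when bacterial control transcripts added at hybridisation set the scale. The median over all tested probe sets moved as well, from 0.086 to 0.024, -0.11 and 0.45 in that order.

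In 10 probe sets (38.5%) both samples at 16 weeks exceeded both at 8 weeks, against 28.7% of all tested probe sets, and in 3 (11.5%) both lay below, against 20.6%. Per gene, 14 of 23 were higher and 9 lower, with a median difference of 0.20 beside 0.072 over all 5864 tested genes. The median size of the members' difference was 0.45, beside 0.29 between the samples of the 8-week group and 0.37 between those of the 16-week group. In 10 of the 26 the difference between groups was larger than the gap within either group. The former is between means of 2 samples and the latter between single samples, so they are unlike measures. Neither these sizes nor this count was taken over all tested probe sets, so they are no result about the members. The myeloperoxidase gene Mpo passed the filter through the 16-week samples alone and so could only read higher. Without such genes 13 members were higher and 9 lower, with a median of 0.15 beside 0.053 over all genes. By probe set 15 members were then higher and 10 lower. The shares with groups apart include probe sets whose side the filter fixed. These were Mpo among the 10 higher members, and 431 higher and 122 lower among all tested probe sets.

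The median difference fell with brightness over all tested probe sets. Over all tested probe sets with a mean intensity under 25 the median difference was 0.20, and the 10 members in that range had the same median, 0.20. Between 25 and 50 the medians were 0.14 for all and 0.33 for the 6 members, and between 50 and 100 they were 0.047 for all and -0.088 for the 8 members. Above 100 the median of all was -0.16, and of the 2 members there 1 was higher and 1 lower.

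**Figure D2:**
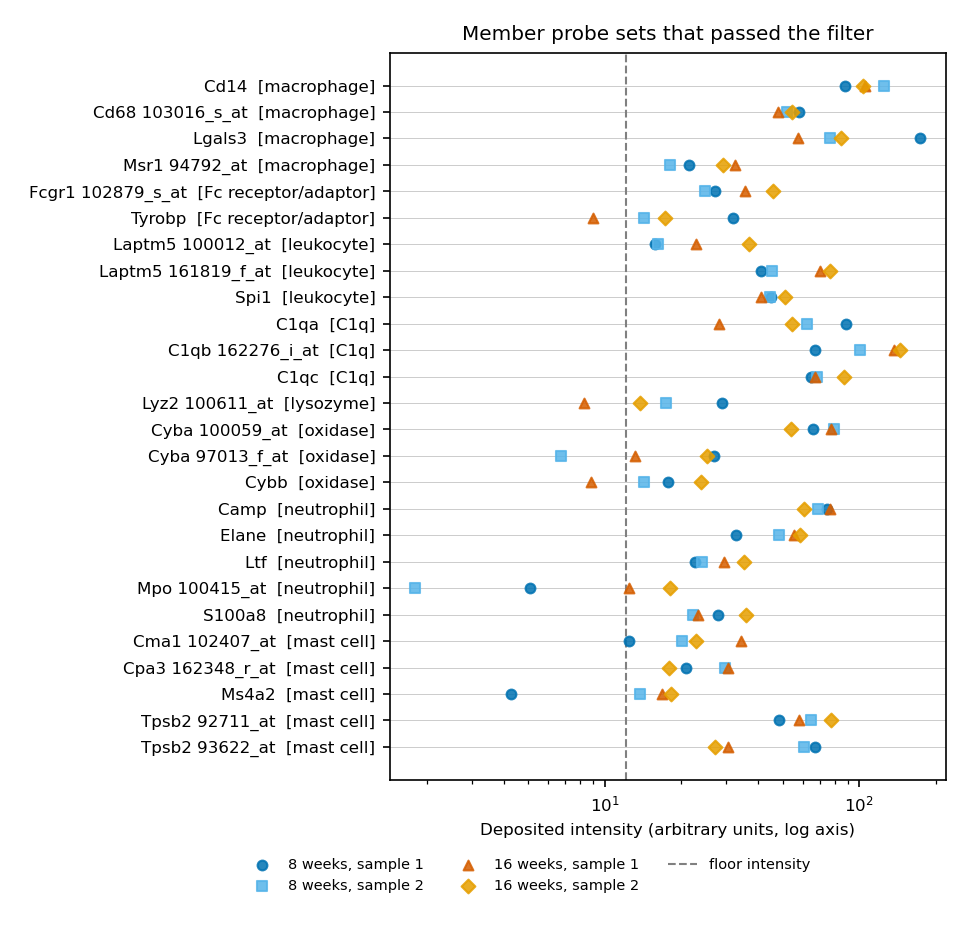
Deposited intensity on a log axis (arbitrary units) of the 26 tested member probe sets, with a point for each of the 4 samples and the floor of 12.15 as a dashed line. The 16-week points lie right of the 8-week points for Laptm5 and Msr1 and left of them for C1qa and Tpsb2 93622_at, while for Cd14 and Camp the groups overlap.

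Macrophage surface and lysosomal genes gave 0 calls, with 1 of 4 tested genes higher and 3 lower. The class A scavenger receptor Msr1, which takes up modified lipoproteins and bacteria, read 21.4 and 18.1 in week 8 against 32.5 and 29.2 in week 16, a difference of 0.65 ± 0.25 (SE; limma adjusted p = 0.353). Both samples at 16 weeks lay above both at 8 weeks. Its second probe set read 1.8 and 4.2 against 11.4 and 10.6, under the floor throughout.

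Galectin-3 (Lgals3), a lectin of macrophages that gastrointestinal epithelium also makes, read 174 and 77.1 against 57.5 and 84.7 (-0.73 ± 0.47). The groups overlapped, and 8-week sample 1 stood above the other samples. The lysosomal glycoprotein Cd68 read 58 and 51.9 against 47.9 and 54.4 (-0.10 ± 0.24), a sign that turned to 0.33 with the arrays aligned on the hybridisation controls. The lipopolysaccharide co-receptor Cd14 read 87.7 and 125.5 against 105.3 and 103.2 (-0.0092 ± 0.28), and turned positive after quantile normalization (0.030) and on the controls (0.43). The 95% intervals, -0.72 to 0.51 for Cd68 and -0.73 to 0.71 for Cd14, leave room for changes in either direction.

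Of the Fc receptor group only the high-affinity IgG receptor Fcgr1 and the adaptor Tyrobp were bright enough to test. Fcgr1 read 27 and 24.7 in week 8 against 35.6 and 46 in week 16 (0.65 ± 0.26, limma adjusted p = 0.364). Both 16-week samples lay above both 8-week samples. The tested probe set has the suffix _s_at, of a kind that marks shared or reduced probes. The second probe set of Fcgr1, with the plain suffix _at, read under the floor on all arrays, at 6.2 to 10.1. Tyrobp, which carries the signal of activating receptors of myeloid and natural killer cells, read 31.8 and 14.3 against 9 and 17.3 (-0.56 ± 0.46). Its groups overlapped, and without 8-week sample 1 the difference was 0.020.

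Laptm5 is a lysosomal membrane protein of blood-forming cells. Of the 3 genes with 2 tested probe sets, Laptm5, Cyba and Tpsb2, it alone had differences of 1 sign on both. The brighter of its probe sets has the suffix _f_at, also of a kind that marks shared or reduced probes. Probe set 161819_f_at read 41.1 and 45.5 in week 8 against 70.1 and 76.5 in week 16, a difference of 0.76 ± 0.24 (limma adjusted p = 0.329), and probe set 100012_at read 15.8 and 16.2 against 22.9 and 37 (0.86 ± 0.32, limma adjusted p = 0.349). On both, the groups did not overlap, so leaving out a sample could not turn the sign. The differences kept their sign under every scaling of the arrays. The myeloid and B cell transcription factor Spi1 read 45.1 and 44.7 against 41.1 and 51.2 (0.031 ± 0.25), and was negative after quantile normalization (-0.053) and on a common median (-0.19).

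Laptm5 is made by lymphocytes as well as by myeloid cells. A list of T, NK and B cell markers also read higher at 16 weeks: of 8 tested genes Cd3d exceeded the floor at 16 weeks alone and so could only read higher, and the other 7 were all higher (median 0.87), against 6 of these 7 on a common median. The summed intensity of all 8, Cd3d included, was 203 and 236 in week 8 against 312 and 348 in week 16. The T cell coreceptor Cd8a lay under the floor on all 4 arrays and Cd3g on 3 of them. The part of lymphocytes in the readings of Laptm5 was not tested.

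Complement C1q is built from 3 chains, and tissue macrophages are its main source. None of the chains passed the test, and differences between chains were not tested. C1qa read 88.4 and 62.5 in week 8 against 28.1 and 54.3 in week 16, a difference of -0.93 ± 0.41 (limma adjusted p = 0.385). C1qb read 67.3 and 100.3 against 136.5 and 144.1 (0.77 ± 0.29, limma adjusted p = 0.353), and C1qc 64.6 and 68.3 against 67.2 and 86.9 (0.20 ± 0.26, and -0.021 on a common median). The groups did not overlap for C1qa, which was lower, or for C1qb, which was higher, and they overlapped for C1qc. C1qb was measured on a probe set with the suffix _i_at, by which the array marks a reduced number of probes, and its second probe set stayed under the floor at 3.1 to 7.

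Lysozyme M (Lyz2), the bacterial wall-cleaving enzyme of macrophages and neutrophils, read 28.9 and 17.4 in week 8 against 8.3 and 13.7 in week 16, a difference of -0.80 ± 0.33 (limma adjusted p = 0.367). Both samples at 16 weeks were lower, 1 of them under the floor, and a second probe set read 2.4 to 4.

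Lyz2, Tyrobp, Lgals3, C1qa and Cd68 were all highest in 8-week sample 1 and lowest in 16-week sample 1, as in the plot of intensities by sample. They were grouped after their readings were seen, and the share with this pattern over all probe sets was not taken. Of the 26 tested member probe sets 7 were highest in 8-week sample 1 and 10 were lowest there. The 8-week sample also stood apart for markers of intestinal epithelium: the summed intensity of the 4 tested markers was 1081 there and 194, 116 and 118 in the other samples. Without it the differences were -0.43 for Lyz2, 0.020 for Tyrobp, -0.14 for Lgals3, -0.68 for C1qa and -0.024 for Cd68. The part of that sample's intestinal transcripts in these readings was not tested.

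The phagocyte oxidase makes superoxide in neutrophils and macrophages. Its catalytic chain Cybb read 17.8 and 14.3 in week 8 against 8.8 and 23.9 in week 16 (0.095 ± 0.40), with the sign turned by quantile normalization (-0.083) and by a common median (-0.087). The smaller membrane chain Cyba, which other cell types also make, read 65.8 and 79.3 against 77.6 and 53.7 (-0.16 ± 0.30, and 0.27 on the hybridisation controls). Its second probe set, 97013_f_at, read 26.9 and 6.7 against 13.2 and 25.3 (0.016 ± 0.52, and -0.15 and -0.17 after quantile normalization and on a common median). For all 3 probe sets the groups overlapped and the samples of a group lay further apart than the groups.

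Neutrophil granule genes gave 0 calls. Besides Mpo, 4 genes were tested, of which 3 were higher at 16 weeks and 1 was lower, with a median of 0.33. On a common median 2 of these 4 were higher and the median was 0.11, and it was 0.54 without 16-week sample 1 and 0.21 without sample 2. Neutrophil elastase (Elane) read 32.7 and 48.2 against 55.2 and 58.5 (0.52 ± 0.29, limma adjusted p = 0.458). Lactoferrin (Ltf), the iron-binding protein of the secondary granules that glands also secrete, read 22.7 and 24.2 against 29.3 and 35.1 (0.45 ± 0.24, limma adjusted p = 0.446). Both genes had both 16-week samples above both 8-week samples, so leaving out a sample could not turn their sign. They kept their sign under every scaling.

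Myeloperoxidase (Mpo), the defining enzyme of the primary granules, read 5.1 and 1.8 in week 8 against 12.4 and 18 in week 16 on probe set 100415_at. With both 8-week samples under the floor the difference was 0.30 ± 0.28 (limma adjusted p = 0.636), and the filter left no other sign. The fold of 1.23 is a lower bound for these readings only. The 95% interval of the difference ran from -0.43 to 1.03, and the first 16-week sample barely passed the floor. On its other probe set Mpo read 3.7 to 7.4 with no order by group. It did not reach the filter after quantile normalization or on a common median.

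S100a8, a calcium-binding protein abundant in neutrophils, read 27.9 and 22.2 against 23.2 and 35.8 (0.21 ± 0.32, and -0.011 on a common median). The cathelicidin Camp, an antimicrobial peptide, read 74.7 and 68.9 against 76.6 and 60.8 (-0.072 ± 0.25, and 0.36 on the hybridisation controls). The groups overlapped for both.

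**Figure D3:**
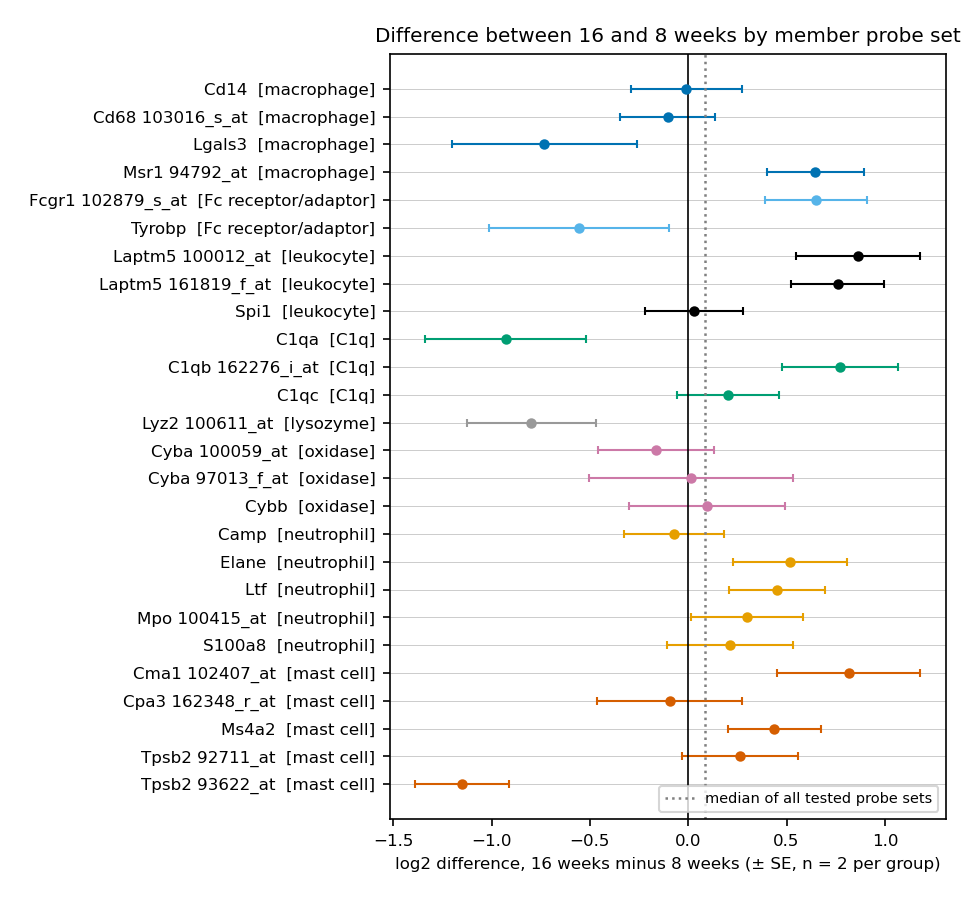
Log2 difference, 16 weeks minus 8 weeks, with its standard error (n = 2 per group) for the 26 tested member probe sets, coloured by role, with the median of all tested probe sets (0.086) as a dotted line. Laptm5, C1qb and Cma1 lie farthest to the right, Tpsb2 93622_at at -1.15 lies farthest to the left, and differences of both signs occur among C1q and mast cell genes.

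Mast cell genes held both the largest difference of the group and a contradiction between probe sets. Tryptase (Tpsb2), the main protease of connective tissue type mast cells, read 66.9 and 60.9 in week 8 against 30.6 and 27.1 in week 16 on probe set 93622_at, a difference of -1.15 ± 0.24, or 2.22-fold lower (limma adjusted p = 0.301). Samples of each group lay close together, and the difference was between -1.24 and -1.06 with a sample left out. On probe set 92711_at the same gene read 48.3 and 64.9 against 58.2 and 77.7 (0.26 ± 0.30, limma adjusted p = 0.687), with overlapping groups. The 2 probe sets, both with the plain suffix _at, thus gave no common direction.

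Smooth muscle markers read lower at 16 weeks in 6 of 7 tested genes, as did Tpsb2 on probe set 93622_at, and none passed the test. The median of the 7 genes was -0.82 and their summed intensity was 3332 and 2864 in week 8 against 1747 and 1677 in week 16. Their part in the tryptase reading was not tested.

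Mast cell chymase (Cma1) read 12.5 and 20.2 in week 8 against 34.2 and 22.9 in week 16 on probe set 102407_at (0.82 ± 0.36, limma adjusted p = 0.389). Both 16-week samples were higher. The difference was positive under every scaling. With a sample left out it was 0.47 to 1.16, and as the groups did not overlap its sign could not turn there. The 2 other probe sets of Cma1 did not exceed 12. The IgE receptor beta chain Ms4a2 read 4.3 and 13.7 against 16.8 and 18.2 (0.44 ± 0.24, limma adjusted p = 0.447), with 8-week sample 1 under the floor. Carboxypeptidase A3 (Cpa3) read 20.8 and 29.8 against 30.4 and 17.9 (-0.094 ± 0.37, and 0.34 on the hybridisation controls), on a probe set with the suffix _r_at that relaxes the rules of probe choice. Its plain probe set was under the floor throughout, at 2.8 to 11.9. Of the 4 tested mast cell genes, each by its brightest probe set, 3 were higher and 1 was lower, with a median of 0.35 (0.19 on a common median). Tpsb2 counts there by probe set 92711_at.

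The scale of the arrays limited what could be said of small differences. The bacterial controls added at hybridisation read lower at 16 weeks, by a median of -0.57 over 9 probe sets. Aligning the arrays on them moved the median of all tested genes from 0.072 to 0.45 and that of the members from 0.20 to 0.47, whereas a common median moved these to -0.13 and -0.054, and quantile normalization to 0.018 and 0.030. Relative to all genes the members' median was 0.13 on the deposited scale and 0.012 to 0.075 on the 3 others. Of 26 probe sets 16, Mpo included, kept their sign under every scaling in which they were tested, and 17 with any sample left out. Where the groups do not overlap, leaving out a sample cannot turn the sign.

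The 15 probe sets that kept it under both were those of Msr1, Fcgr1, Laptm5 (both), C1qb, Elane, Ltf, Mpo, Cma1, Ms4a2 and Tpsb2 92711_at, which read higher (for Mpo the filter left no other sign), and of Lgals3, C1qa, Lyz2 and Tpsb2 93622_at, which read lower. The median of the member genes was 0.47 when 16-week sample 1 was left out. It was 0.056 without 16-week sample 2, which held the highest reading of 13 of the 26 probe sets, and the median of all genes was then 0.099, above that of the members. The summed intensity of 5 tested markers of pancreatic acinar cells was also highest in that sample, at 6886. It was 2429 in the other 16-week sample and 3860 and 1231 at 8 weeks. Of these markers Clps went the other way, at 389 there against 391.4 to 483.8 in the other samples. The part of these markers in the members' readings was not tested.

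**Figure D4:**
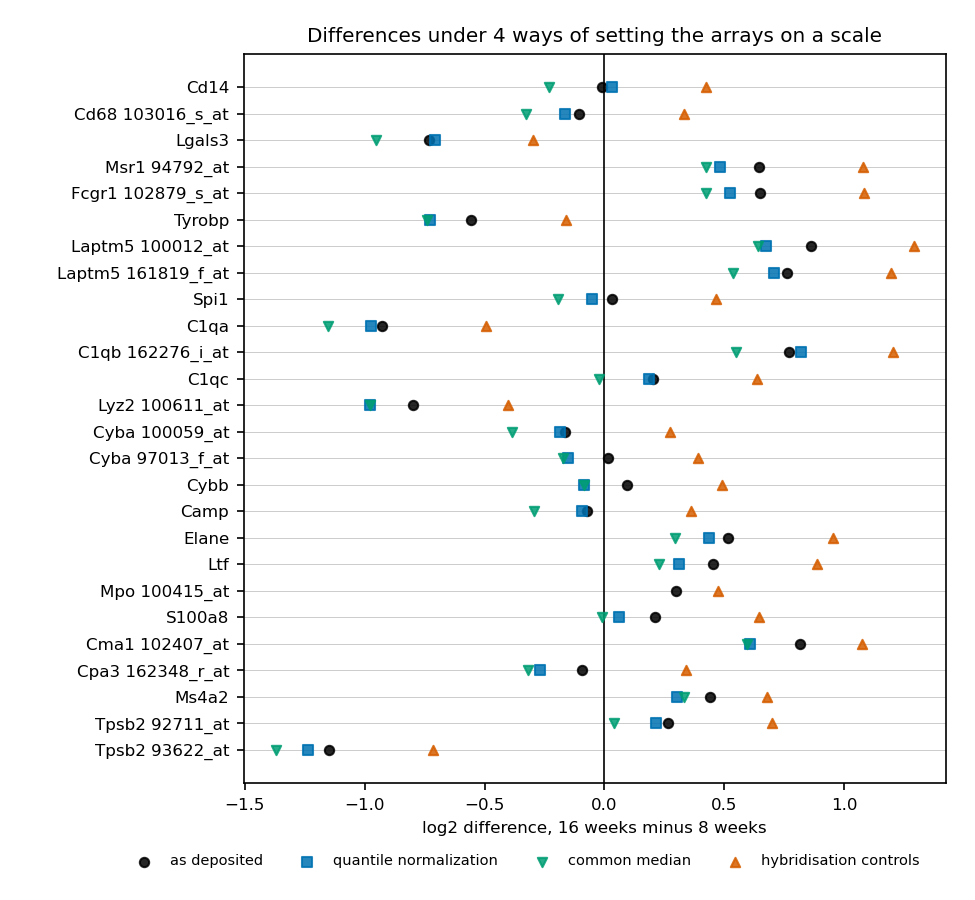
Log2 difference, 16 weeks minus 8 weeks, of the 26 tested member probe sets on the deposited scale and after 3 rescalings of the arrays (quantile normalization, a common median, alignment on the hybridisation controls). Alignment on the controls moves every point to the right, so that Cd14, Cd68, Camp, Cpa3 and Cyba 100059_at cross 0. Laptm5 stays right of 0, and C1qa, Lyz2 and Tpsb2 93622_at stay left of it.

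Other genes of the same cells gave 0 calls by limma's adjusted p as well. An unadjusted limma p under 0.05 occurred in 3 genes, beside 781 of all 5864 tested genes. All 3 were among the 12 tested kinases, adaptors and cytoskeletal proteins given below. Of 24 further macrophage genes 13 were tested, with 7 higher, 6 lower and a median of 0.044, which was -0.18 on a common median. Lipoprotein lipase (Lpl), made by macrophages and fat cells, read 122 and 126 in week 8 against 87.1 and 31.4 in week 16 (-1.25 ± 0.52), and the inflammatory transcription factor Cebpb 52.7 and 38.4 against 32.3 and 24.1 (-0.69 ± 0.30). The myeloid and B cell factor Irf8 read 15 and 2.5 against 23 and 18.7 (0.62 ± 0.27), with 8-week sample 2 under the floor. The pore-forming macrophage protein Mpeg1 gave 0.76 ± 0.48 with overlapping groups. As among the members, macrophage genes thus lay on both sides.

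Kinases, adaptors and cytoskeletal proteins that act beneath immune receptors gave 9 higher and 3 lower of 12 tested genes. Their median was 0.39 (0.17 to 0.77 under the other scalings). An unadjusted limma p under 0.05 was found for 781 of all 5864 tested genes (14.0% over all tested probe sets), and for 3 of these 12. Among these 3 was the actin bundler of leukocytes Lcp1, at 19 and 9.8 against 26.1 and 36.3 (1.02 ± 0.34, limma adjusted p = 0.338), with 8-week sample 2 under the floor. Another was the inositol phosphatase Inpp5d, at 15.9 and 20.1 against 27.4 and 58.6 (1.16 ± 0.43). The myeloid Src kinase Fgr read 39.7 and 64.6 against 84.4 and 76.8 (0.67 ± 0.32) and was not among these 3. Most of these genes are active in lymphocytes too, whose markers read higher as given above. The part of lymphocytes in the readings of these genes was not tested.

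Of 18 further neutrophil genes 7 were tested. Chil3 exceeded the floor at 16 weeks alone, and of the other 6 genes 5 were higher and 1 was lower, with a median of 0.32, which was 0.095 on a common median, with 4 of 6 higher, and 0.086 without 8-week sample 1, with 3 of 6 higher. The receptor of the neutrophil growth factor, Csf3r, read 81.5 and 133.5 in week 8 against 179.9 and 131.3 in week 16 (0.56 ± 0.35), with overlapping groups. Lipocalin 2 (Lcn2), an iron-trapping protein of neutrophils and inflamed epithelium, gave 0.43 ± 0.27 on a probe set with the suffix _r_at. On a second, plain probe set it gave -0.22 ± 0.31. The selectin ligand Selplg gave 0.40 ± 0.25. The chitinase-like Chil3 read 2.7 and 5.2 against 12.2 and 30.4 (0.66 ± 0.47, limma adjusted p = 0.536). The filter left it no other sign, and 16-week sample 1 barely passed the floor.

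Of 15 further mast cell genes 5 were tested. Mitf exceeded the floor at 16 weeks alone, and of the other 4 genes 2 were higher and 2 lower, with a median of -0.013, and 1 was higher on a common median (-0.19). The transcription factor Gata2 read 45.7 and 51.5 against 52.5 and 64 (0.26 ± 0.25) and the Kit ligand Kitl 37.5 and 27.7 against 34.7 and 14.1 (-0.54 ± 0.49). Mitf, a transcription factor of mast cells and pigment cells, read 5.3 and 6.6 against 13.8 and 19.1 (0.42 ± 0.27, limma adjusted p = 0.508). The filter left Mitf no other sign. The basophil protease Mcpt8 gave -0.032 ± 0.28. The eosinophil list had 1 tested gene, the eotaxin receptor Ccr3, at 10.5 and 21.4 against 21.5 and 22.3 (0.44 ± 0.34), with 8-week sample 1 under the floor. Of the oxidase's other parts the small GTPase Rac1 gave 0.23 ± 0.23, and Rap1a -0.72 ± 0.42 with 16-week sample 2 under the floor. A second probe set of Rap1a gave 0.43 ± 0.26.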

How the data were processed

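The authors deposited 1 intensity per probe set and array, linear and never negative, for 12488 probe sets in 4 samples. The sources used here do not state how it was computed or scaled. The array's annotation gave 1 gene symbol for 10833 of 12422 probe sets other than controls, several for 396 and none for 1193. No genome or sequence was used.

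Values under the floor, the median of the arrays' 40th percentiles (12.15), were set to it, log2 was taken, and the 7883 probe sets above it on at least 2 arrays were tested with limma 3.58.1 (lmFit, eBayes; R 4.3.3), 2-sided, with Benjamini-Hochberg adjustment over all of them and a threshold of 0.05. An exact permutation test of 2 against 2 samples cannot go below a 2-sided p of 0.333. A gene was counted by its brightest tested probe set. Scripts were tested on simulated data. Every member is named, and of each further list the up to 4 tested genes with the smallest p, except 1 gene of the kinase and adaptor list, which is not reported here. Members and lists were chosen with earlier results of these data known. Alternatives covered scaling, floor, filter, probe choice, variance trend, replicate block and leaving out each sample.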

Additional observations from a re-analysis of the deposited data

How the results depend on the processing

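Under every alternative 0 member probe sets and 0 genes of the further lists passed limma's test. Over all probe sets 22 passed without the filter on dim signals, and 0 under the other alternatives; the cause was not tested. The median of the member genes was -0.054 on a common median and 0.47 on the hybridisation controls, and 0.056 to 0.47 with a sample left out. Signs turned for 11 of 26 probe sets. Quantile normalization gave -0.083 for Cybb, -0.053 for Spi1, -0.15 for Cyba 97013_f_at and 0.030 for Cd14. A common median gave -0.087 for Cybb, -0.19 for Spi1, -0.011 for S100a8, -0.021 for C1qc and -0.17 for Cyba 97013_f_at. The hybridisation controls gave 0.27 for Cyba 100059_at, 0.33 for Cd68, 0.34 for Cpa3, 0.36 for Camp and 0.43 for Cd14. Cybb was -0.14 with a lower floor and -0.025 with log2(value + 16). With a sample left out, where the lone sample is taken to vary like the other group, the ranges were -1.13 to 0.020 for Tyrobp, -0.39 to 0.58 for Cybb, -0.48 to 0.29 for Cpa3, -0.56 to 0.59 for Cyba 97013_f_at, -0.43 to 0.10 for Cyba 100059_at, -0.27 to 0.25 for Cd14, -0.13 to 0.19 for Spi1, -0.10 to 0.52 for S100a8 and -0.24 to 0.095 for Camp. The replicate numbers 1 and 2 have no stated meaning and the deviations of samples that share a number correlated at -0.050, so they do not pair the samples; with the number as a replicate block 0 probe sets passed and the members' median stayed at 0.20. Without Mpo, the member gene above the floor in 1 group alone, the members' median was 0.15, an alternative chosen after the data were seen. Signal over background limits the coverage: 31 of 57 member probe sets could not be tested.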
